A study of Mus musculus with 15 samples.

Results

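The granule lineage transcription factors are 9 genes whose proteins act from the dividing progenitor of the cerebellar granule neuron to the neuron that has left the cell cycle. They are Atoh1, Nhlh1, Nhlh2, Barhl1, Pax6, Insm1, Meis1, Neurod1 and Neurod2. Each was found by its name as the single gene symbol of an array row, and all 9 were measured, among 22180 genes in all. RNA from newborn mouse cerebella was hybridised to whole-transcript arrays, 1 per library, in 3 groups of 5 libraries on a C57BL/6 background. By their labels the DKO libraries come from cerebella whose progenitors lack Gsk-3 (glycogen synthase kinase 3) in its alpha and its beta form. Those labelled Math1-Cre control, described as Gska+-, GskBff with M1Cre, are given as lacking Gsk-3 beta alone. Those labelled no-Cre control carry no Cre and are described as Gska+-, GskBff with intact kinases, except that the description of replicate 5 leaves out GskBff. Both controls thus carry 1 altered Gsk3a allele. The Cre is expressed from the Math1 (Atoh1) promoter, so deletion by Cre is directed to Atoh1-expressing cells. Whether loss of the alpha form depends on Cre is not stated in the control descriptions, which give the altered Gsk3a allele without Cre too. The age is given as postnatal day 1 in one label and day 2 in another, and the samples are called whole cerebella although the design text has progenitors enriched on a density gradient before RNA isolation, so how many other cells remained is not known. Each library is described as whole cerebella of 1 replicate, no litter is named, and the spread behind the p-values is that between these samples, which may be technical.

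Granule neurons arise from progenitors that divide in the external layer of the newborn cerebellum, leave the cell cycle, and migrate inwards as they mature. Atoh1, a basic helix-loop-helix (bHLH) factor, defines the progenitor and holds it in division. Nhlh1, Nhlh2, Neurod1 and Neurod2 are further bHLH factors of this lineage, Barhl1 and Meis1 are homeodomain factors, Pax6 is a paired-box factor and Insm1 a zinc finger factor. Gsk-3 marks beta-catenin for destruction, so its loss is known to raise WNT target genes such as Axin2. In bulk RNA, fewer cells of a type and less RNA per cell cannot be told apart.

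The array row annotated to Gsk3a and also to 9130221H12Rik did not match the label of 4 libraries. Whether samples were exchanged cannot be resolved from the labels, so each labelled difference over 15 libraries holds for the labels as given. The libraries labelled DKO 2, 4 and 5 and Math1-Cre 1 and 2 lay at 7.89 to 8.27 on the log2 scale, and the other 10, DKO 1 and 3 among them, at 9.37 to 9.59. Axin2 was 8.14 to 8.52 in those 5 low libraries and 6.86 to 7.14 in the 10 high ones. Over all genes 0.663% lay higher in the low libraries without overlap. Each comparison is therefore given over all 15 libraries and over the 11 left without DKO 1, DKO 3, Math1-Cre 1 and Math1-Cre 2, an alternative chosen after the data were seen, and levels are also described by the Gsk3a row below or above 9.0. That split comes from a measured level, so it is given with no test. The 11 libraries were chosen by the same level and hold only low-row DKO and high-row control libraries, so their p-values are conditional on that choice and are not independent of the split. Gsk3b lay at 10.59 to 10.98 in DKO, 10.68 to 10.93 in Math1-Cre and 10.61 to 10.84 in no-Cre libraries, and a row over a whole transcript need not cover a deleted exon. Olfactory and vomeronasal receptor genes stand here for background, and the 95th percentile of their means was 4.93. Of the markers of other cells Gfap (astrocytes), Ptf1a (interneurons), Tbr1 (nuclear neurons), Aif1, C1qa and Tmem119 (microglia) and 7 of 11 hindbrain genes averaged below it. Array spread was smallest in DKO 3, DKO 4, DKO 5 and no-Cre 4, with interquartile ranges of 4.00 to 4.12. It followed the label too, since all 5 DKO arrays (4.06 to 4.24) lay below every control array but no-Cre 4. The other controls lay at 4.31 to 4.40. The median of the receptor genes was 3.68 to 4.11 in DKO, 4.05 in no-Cre 4 and 3.50 to 3.62 in the other controls.

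Promoter sequences are shown for Atoh1, for Nhlh1 and its close relative Nhlh2, whose level differed less, and for Barhl1, which is described next to Nhlh1. They are the 250 bases before the RefSeq start site in build GRCm38.p6, written 5′ to 3′ on the strand of the gene. Capitals mark the E-box CANNTG, the site bound by bHLH factors, and the LEF/TCF motif CTTTGAT on either strand.
Atoh1: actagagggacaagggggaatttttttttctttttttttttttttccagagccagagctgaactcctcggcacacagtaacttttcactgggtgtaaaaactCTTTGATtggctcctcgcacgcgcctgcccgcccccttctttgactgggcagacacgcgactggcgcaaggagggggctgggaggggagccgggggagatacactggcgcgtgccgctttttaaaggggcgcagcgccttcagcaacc
Nhlh1: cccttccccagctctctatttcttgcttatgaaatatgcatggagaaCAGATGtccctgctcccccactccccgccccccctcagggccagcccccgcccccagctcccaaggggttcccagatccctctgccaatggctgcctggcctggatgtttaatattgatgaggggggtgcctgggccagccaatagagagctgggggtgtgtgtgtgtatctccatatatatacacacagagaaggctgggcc
Nhlh2: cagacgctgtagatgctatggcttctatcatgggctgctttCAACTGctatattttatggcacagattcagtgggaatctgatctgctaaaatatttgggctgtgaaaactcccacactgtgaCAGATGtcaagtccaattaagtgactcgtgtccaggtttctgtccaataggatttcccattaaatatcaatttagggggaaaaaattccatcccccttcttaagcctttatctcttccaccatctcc
Barhl1: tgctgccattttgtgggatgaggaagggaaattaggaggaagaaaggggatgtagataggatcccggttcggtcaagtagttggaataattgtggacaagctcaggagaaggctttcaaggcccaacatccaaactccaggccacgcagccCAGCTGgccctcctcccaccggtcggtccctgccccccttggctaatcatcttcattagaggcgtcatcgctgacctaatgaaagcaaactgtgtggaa
The Atoh1 window lies at chr6:64728875-64729124 on the plus strand, that of Nhlh1 at chr1:172057597-172057846 on the minus strand, that of Nhlh2 at chr3:102009895-102010144 on the plus strand and that of Barhl1 at chr2:28916669-28916918 on the minus strand. The Atoh1 window held 1 CTTTGAT match, which 3.21% of 32851 RefSeq promoter windows of this length hold, and 0 E-boxes. The Nhlh1 window held 1 E-box and that of Nhlh2 held 2, each including a CAGATG. The Barhl1 window held 1 E-box, of the form CAGCTG, a palindrome found in 13% of all windows, and so did the window of its second start site. An E-box of any form stood in 66.2% of windows. Insm1 had no promoter window to examine. Of the other members, Pax6 (at its second start site), Meis1 and Neurod1 had 1 E-box and Neurod2 had 3. These matches describe the letters of the window and show no binding.

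Atoh1 was lower in the libraries labelled DKO than in those labelled no-Cre control, whatever their Gsk3a row. It was 8.54, 7.81, 8.57, 8.57 and 8.65 in DKO 1 to 5, 8.34, 8.03, 8.95, 8.95 and 9.09 in Math1-Cre 1 to 5, and 9.22, 9.31, 8.94, 9.24 and 8.99 in no-Cre 1 to 5. All DKO values lay below all no-Cre values, and within the Math1-Cre group replicates 1 and 2 lay below the other three and inside the DKO range. DKO minus no-Cre was -0.71 ± 0.20 (SE), a 1.64-fold difference that did not pass the test (limma adjusted p = 0.116). Over 11 libraries it was -0.80 ± 0.17 (limma adjusted p = 0.0495), with means of 8.34 ± 0.46 in DKO (SD, n = 3) and 9.14 ± 0.16 in no-Cre (SD, n = 5). This call passed in only 5 of 21 other settings, whose adjusted p ran from 0.0214 to 0.23, and leaving out any 1 library other than DKO 5 or no-Cre 4 ended it (adjusted p of 0.061 to 0.129). DKO minus Math1-Cre was -0.24 ± 0.20 over 15 libraries (limma adjusted p = 0.466) and -0.65 ± 0.19 over 11 (limma adjusted p = 0.165).

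By the Gsk3a row, Atoh1 overlapped. It ran from 7.81 to 8.65 with a median of 8.34 in the 5 low libraries, and from 8.54 to 9.31 with a median of 8.97 in the 10 high ones. The 2 high libraries inside the low range were DKO 1 and DKO 3. The other 8 high libraries, all controls, began at 8.94. Atoh1 thus lay below these 8 in every low library and in both DKO libraries of high Gsk3a row.

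Nhlh1, also known as NSCL1, a bHLH factor of newly formed neurons, followed the Gsk3a row without overlap. It was 8.13, 7.29, 8.15, 7.34 and 7.56 in DKO 1 to 5, 7.41, 7.23, 8.68, 8.40 and 8.61 in Math1-Cre 1 to 5, and 8.94, 8.56, 8.45, 8.61 and 8.44 in no-Cre 1 to 5. The 5 libraries of low Gsk3a row thus lay at 7.23 to 7.56 and the 10 of high row at 8.13 to 8.94, with a gap of 0.57 between them. Nhlh1 was 1 of 9 members that lay lower without overlap, and none lay higher, while 0.843% of all genes lay lower without overlap and 0.663% higher. Within the high libraries DKO 1 and 3 were again the lowest, below the control range of 8.40 to 8.94. DKO minus no-Cre was -0.90 ± 0.27 over 15 libraries and did not pass (limma adjusted p = 0.13), although all 5 DKO values lay below all no-Cre values. Over 11 libraries Nhlh1 was 2.30-fold lower in DKO than in no-Cre (-1.20 ± 0.12, limma adjusted p = 0.000571) and 2.25-fold lower than in Math1-Cre (-1.17 ± 0.14, limma adjusted p = 0.00205). The means were 7.40 ± 0.14 in DKO (SD, n = 3), 8.56 ± 0.14 in Math1-Cre (SD, n = 3) and 8.60 ± 0.20 in no-Cre (SD, n = 5). Both calls held in all 21 other settings, with adjusted p of 0.000127 to 0.0167 against no-Cre and of 0.00069 to 0.0326 against Math1-Cre. Those settings all draw on the same 11 chosen libraries, so they do not test the choice. Over 15 libraries Nhlh1 passed in 0 of 25 other settings against no-Cre (limma adjusted p of 0.0728 to 0.293). Against Math1-Cre it passed in 0 of 25 as well (limma adjusted p of 0.217 to 0.816). The 11 libraries were chosen with this gene's split already known, so the 11-library calls are not blind to the choice.

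**Figure D1:**
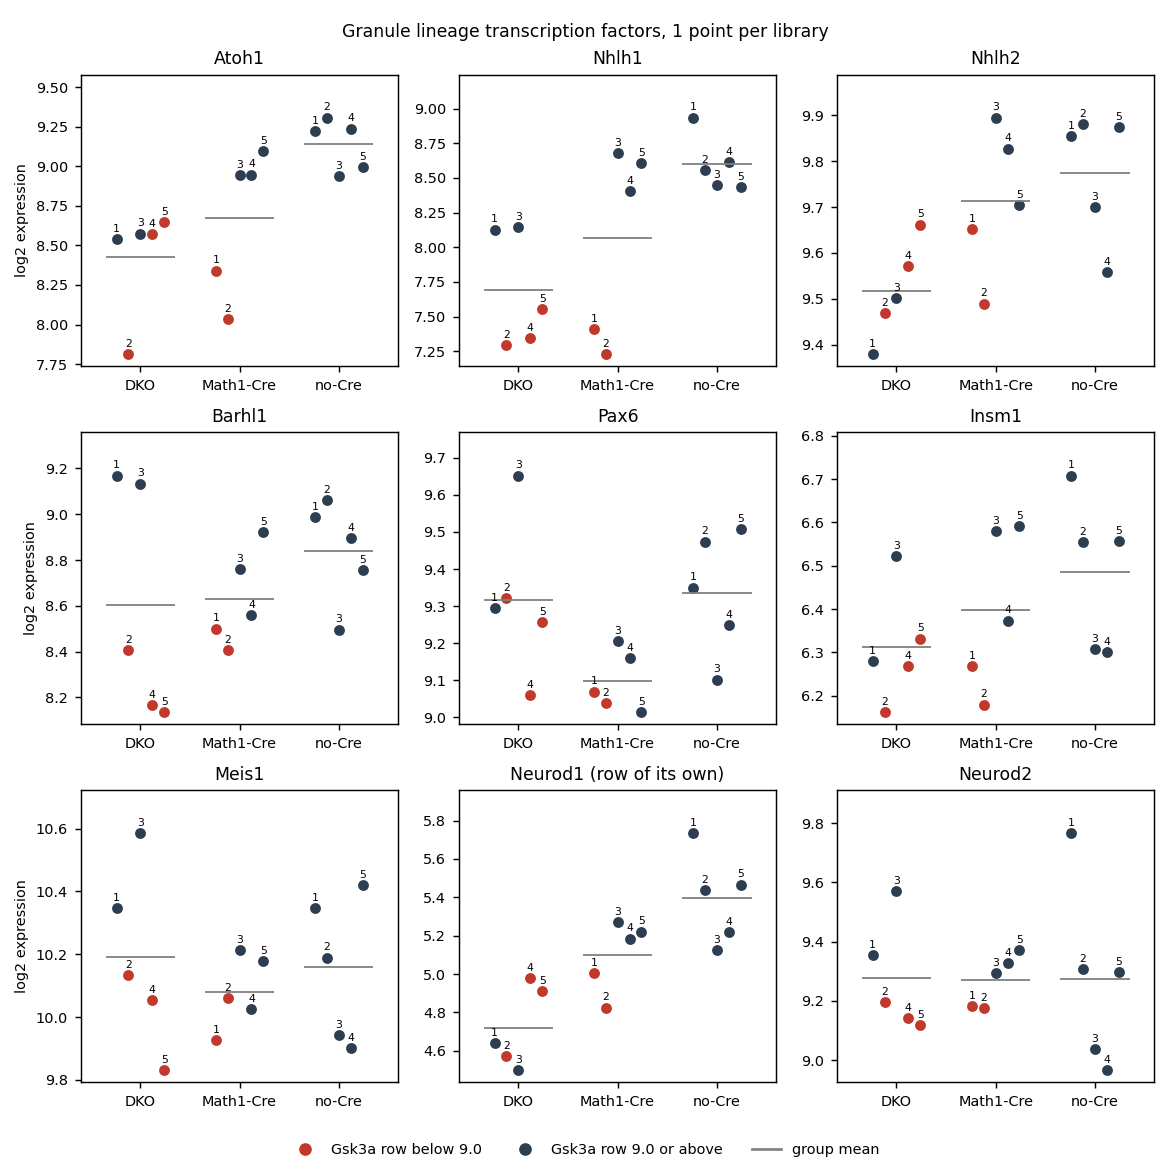
Log2 expression of the 9 factors (vertical axis, scaled for each gene) in each library by labelled group, with the replicate number above each point, the group mean as a line, and red points for libraries whose Gsk3a row is below 9.0. The red Nhlh1 points (7.23 to 7.56) lie apart from all others (8.13 to 8.94), whereas Atoh1 is low in all 5 DKO libraries, red or not.

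Nhlh2, or NSCL2, shared the direction of its relative in DKO minus no-Cre, but the difference was smaller. It lay at 9.38, 9.47, 9.50, 9.57 and 9.66 in DKO 1 to 5, at 9.65, 9.49, 9.90, 9.83 and 9.70 in Math1-Cre 1 to 5, and at 9.86, 9.88, 9.70, 9.56 and 9.87 in no-Cre 1 to 5. DKO 1, whose Gsk3a row was high, was the lowest library and DKO 5, whose row was low, the highest of its group, so Nhlh2 overlapped by the row. DKO minus no-Cre was -0.26 ± 0.09 (limma adjusted p = 0.172) and -0.21 ± 0.10 over 11 libraries (limma adjusted p = 0.408). Without no-Cre 4, the narrowest array, the difference over the other 14 libraries passed at -0.31 (limma adjusted p = 0.0443).

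Barhl1, a homeodomain factor that acts downstream of Atoh1 in granule cells, was low in the libraries of low Gsk3a row and high in DKO 1 and 3. It was 9.17, 8.41, 9.13, 8.17 and 8.14 in DKO 1 to 5, 8.50, 8.41, 8.76, 8.56 and 8.92 in Math1-Cre 1 to 5, and 8.99, 9.06, 8.50, 8.90 and 8.76 in no-Cre 1 to 5. By the Gsk3a row the sole overlap was between no-Cre 3 and Math1-Cre 1, both at 8.50. DKO 1 and 3 were the 2 highest of all libraries, whereas for Atoh1 and Nhlh1 they were the lowest among the 10 libraries of high row. The labelled difference between DKO and no-Cre was therefore small, at -0.24 ± 0.20 (limma adjusted p = 0.544). Over 11 libraries it was -0.60 ± 0.13, just outside the threshold (limma adjusted p = 0.0609), with 8.24 ± 0.15 in DKO (SD, n = 3) and 8.84 ± 0.22 in no-Cre (SD, n = 5). It passed in 4 of 21 other settings, among them without no-Cre 3 (-0.69, limma adjusted p = 0.0241) and without no-Cre 4 (-0.59, limma adjusted p = 0.0438).

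**Figure D2:**
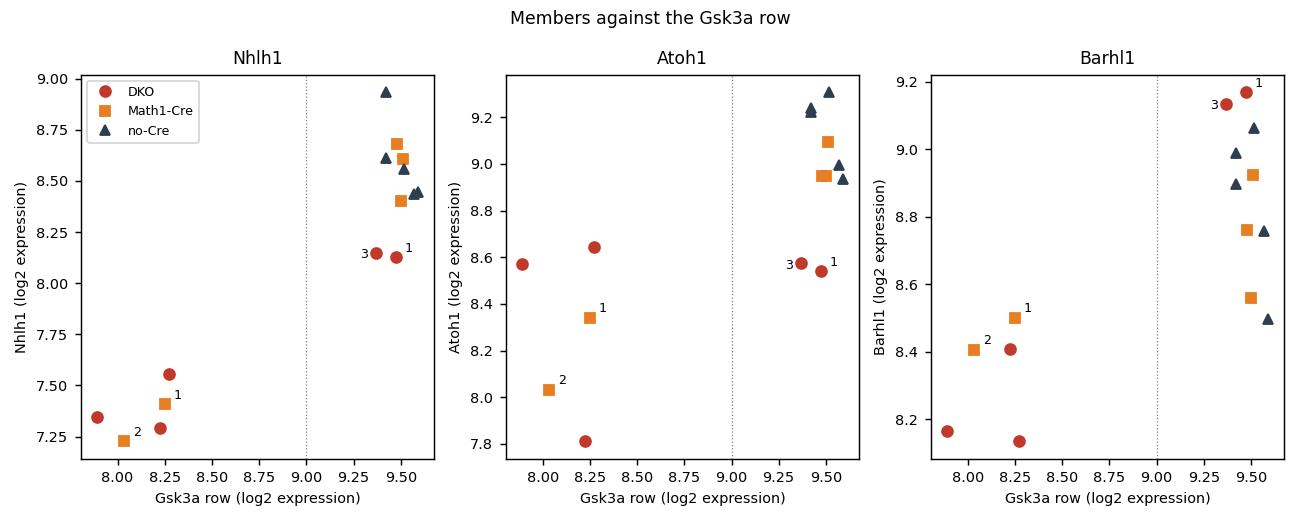
Log2 expression of Nhlh1, Atoh1 and Barhl1 (vertical axes) against the log2 level of the Gsk3a row (horizontal axis) in the 15 libraries, with numbers at the 4 libraries whose row goes against the label and a dotted line at 9.0. DKO 1 and 3, at the right, lie below the 8 control libraries for Nhlh1 and Atoh1 and above them for Barhl1.

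The libraries DKO 1 and DKO 3, labelled as deleted but with a high Gsk3a row, stood apart from the 8 control libraries of high row in 5 members. Both lay below all 8 for Atoh1, Nhlh1, Nhlh2 and the row of Neurod1 alone, and above all 8 for Barhl1. Over all genes 8.47% lay below in this way and 5.37% above. In the row of Neurod1 alone DKO 1 and 3 were at 4.64 and 4.50, under the background limit of 4.93. In the row that Neurod1 shares with Cerkl they overlapped the 8 controls. This description of DKO 1 and 3 was made after the values were seen.

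Pax6, Insm1 and Meis1 passed in no comparison. Pax6 acts in progenitors and in granule neurons. It ran from 9.06 to 9.65 in DKO, from 9.01 to 9.21 in Math1-Cre and from 9.10 to 9.51 in no-Cre libraries, and DKO minus no-Cre was -0.02 ± 0.10 (limma adjusted p = 0.939), a sign that turns with scaling. DKO minus Math1-Cre was +0.22 ± 0.10 (limma adjusted p = 0.213). A second row, which Pax6 shares with Elp4, ran from 8.13 to 8.44 in DKO, 8.53 to 8.71 in Math1-Cre and 8.45 to 8.75 in no-Cre libraries. All DKO values of that shared row lay below those of both controls, unlike the row of Pax6 alone. By label 1.96% of all genes lay below no-Cre without overlap and 5.51% below Math1-Cre. Which of the 2 genes the shared row reads was not examined. Insm1, a factor of cells that are committing to neuronal fate, ran from 6.16 to 6.52 in DKO, 6.18 to 6.59 in Math1-Cre and 6.30 to 6.71 in no-Cre libraries. By the Gsk3a row Insm1 lay at 6.16 to 6.33 in the low libraries and at 6.28 to 6.71 in the high ones, with 3 high libraries inside the low range. Meis1 ran from 9.83 to 10.58 in DKO, 9.93 to 10.21 in Math1-Cre and 9.90 to 10.42 in no-Cre libraries, with DKO 3 highest and DKO 5 lowest of all. Its differences were +0.03 ± 0.13 against no-Cre and +0.11 ± 0.13 against Math1-Cre (limma adjusted p = 0.926 and 0.64).

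Neurod1, which granule neurons need to differentiate, is read by 2 array rows that did not show the same pattern. The row of Neurod1 alone was 4.64, 4.57, 4.50, 4.98 and 4.91 in DKO 1 to 5, 5.01, 4.83, 5.27, 5.18 and 5.22 in Math1-Cre 1 to 5, and 5.73, 5.44, 5.13, 5.22 and 5.47 in no-Cre 1 to 5. All DKO values lay below all no-Cre values. The row shared by Neurod1 and Cerkl was 10.46, 10.39, 10.57, 10.32 and 10.36 in DKO 1 to 5, 10.41, 10.41, 10.75, 10.68 and 10.54 in Math1-Cre 1 to 5, and 10.89, 10.71, 10.61, 10.43 and 10.80 in no-Cre 1 to 5. In the shared row DKO 3 lay above no-Cre 4. By the Gsk3a row the 5 low libraries (10.32 to 10.41) lay just below the 10 high ones (10.43 to 10.89). The gap was 0.02, and 0.843% of all genes lay lower without overlap.

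The row of Neurod1 alone may not read the Neurod1 transcript, and its DKO mean of 4.72 lay below the background limit of 4.93. Array row numbers run along each chromosome by strand, and of the 20 rows nearest to it in number on chromosome 2, 18 belong to genes on the opposite strand from Neurod1. For the shared row 19 of 20 neighbours lie on the strand of Neurod1. The rows of Atoh1, Nhlh1, Nhlh2, Barhl1, Pax6, Meis1 and Neurod2 had 17 to 20 of 20, and that of Insm1 was not checked. The shared row in turn can hold signal of Cerkl. On the row alone, DKO minus no-Cre was -0.68 ± 0.13 (limma adjusted p = 0.0611) and DKO minus Math1-Cre -0.38 ± 0.13 (limma adjusted p = 0.113). On the shared row the difference from no-Cre was -0.27 ± 0.09 (limma adjusted p = 0.174) and from Math1-Cre -0.14 ± 0.09 (limma adjusted p = 0.383). The size thus depends on the row by more than a factor of 1.5 and neither passed. The row alone passed in 4 of 25 other settings against no-Cre (adjusted p of 0.0149 to 0.164), namely with array weights and on leaving out DKO 4 or DKO 5 or the library no-Cre 4. Over 11 libraries the differences from no-Cre were -0.58 ± 0.14 on the row alone (limma adjusted p = 0.0796) and -0.33 ± 0.10 on the shared row (limma adjusted p = 0.2).

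**Figure D3:**
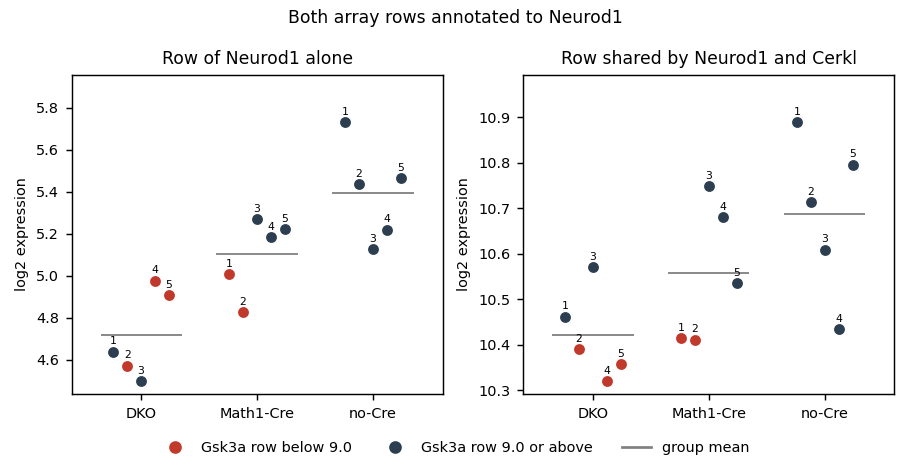
Log2 expression of both array rows annotated to Neurod1 (vertical axes, separate scales) in each library by labelled group, with the replicate number above each point and the group mean as a line. In the row of Neurod1 alone all DKO libraries (4.50 to 4.98) lie below all no-Cre libraries (5.13 to 5.73), whereas in the shared row DKO 3 at 10.57 lies above no-Cre 4 at 10.43.

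Neurod2, the member that acts latest, in neurons that have left the cell cycle, did not separate the labelled groups over 15 libraries. It ran from 9.12 to 9.57 in DKO, 9.17 to 9.37 in Math1-Cre and 8.97 to 9.77 in no-Cre libraries, and its means were 9.28, 9.27 and 9.27. DKO minus no-Cre was 0.0017 ± 0.13 (limma adjusted p = 0.997). The 5 libraries of low Gsk3a row lay close together at 9.12 to 9.20, and 2 of the 10 high ones, no-Cre 3 and no-Cre 4, lay at or below them. Over 11 libraries DKO lay at 9.12 to 9.20 (n = 3), within the no-Cre range, and Math1-Cre at 9.29 to 9.37 (n = 3). DKO minus Math1-Cre was -0.18 ± 0.17 (limma adjusted p = 0.599). How many of all genes separate these few chosen libraries was not counted, so nothing is read from their ranges.

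Counted over the 9 factors, 0 passed in DKO against no-Cre over 15 libraries, where 0.0721% of all genes passed, and 4 had an unadjusted p under 0.05, as had 17.4% of all genes. The median difference was -0.24 over the members and -0.02 over all genes. By label, 3 members, Atoh1, Nhlh1 and Neurod1 on its own row, lay lower in DKO without overlap, against 1.96% of all genes. That Neurod1 row may not read the transcript, and the row shared with Cerkl overlapped. Against Math1-Cre 0 members passed over 15 libraries (0.55% of all genes), 3 had an unadjusted p under 0.05 (23% of all genes), and 0 lay lower without overlap (5.51% of all genes). Neurod1 on its own row was among those 3, whereas the shared row had limma unadjusted p = 0.161. Over 11 libraries 2 members, Atoh1 and Nhlh1, were lower in DKO than in no-Cre, where 0.64% of all genes were lower, and 1 member, Nhlh1, was lower than in Math1-Cre, where 0.252% were. In either direction 1.08% and 0.541% of all genes passed. The comparisons share their DKO libraries. All of these counts stand on members chosen with earlier results in view.

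Between the controls, Math1-Cre minus no-Cre, 0 members and 0 genes (0%) passed in limma. An unadjusted p under 0.05 was found for 716 genes (3.23%), among them Atoh1, Pax6 and Neurod1 on its own row. The shared row of Neurod1 had limma unadjusted p = 0.183. The labelled differences of Nhlh1 (-0.53 ± 0.27), Atoh1 (-0.47 ± 0.20), Neurod1 on its own row (-0.29 ± 0.13) and Pax6 (-0.24 ± 0.10) each had limma adjusted p = 1. Without the 4 libraries 0 members and 488 genes (2.2%) had an unadjusted p under 0.05, Nhlh1 was at -0.03 and Atoh1 at -0.14, and the members ran from -0.21 to +0.06. In Math1-Cre 3, 4 and 5, described as lacking Gsk-3 beta alone, Nhlh1 (8.40 to 8.68) lay within or close to the no-Cre range of 8.44 to 8.94.

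**Figure D4:**
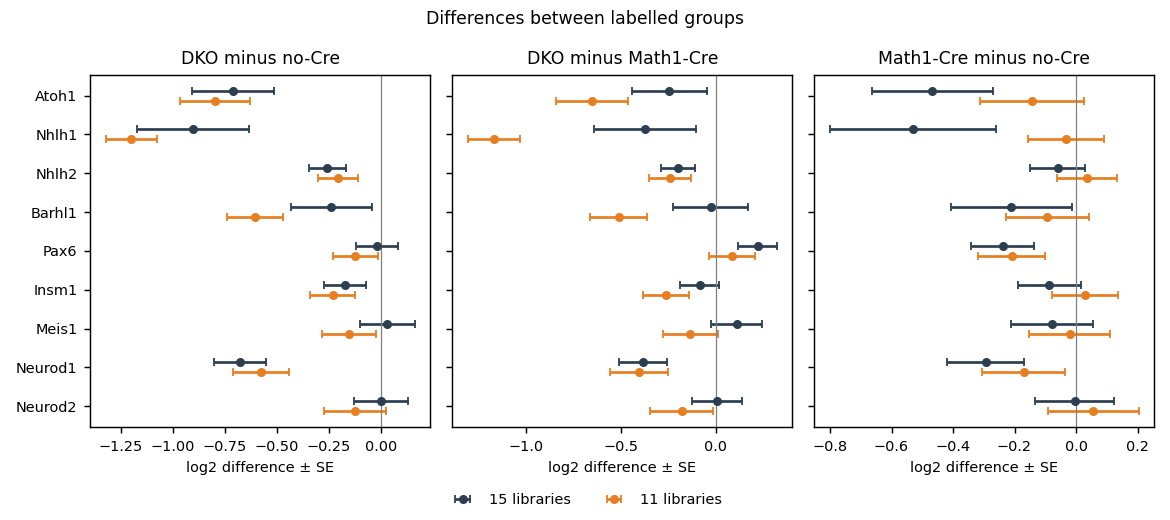
Log2 differences with SE from limma (horizontal axis) for the 9 factors, over all 15 libraries and over the 11 left without the 4 whose Gsk3a row goes against the label. Nhlh1 lies farthest from 0 in DKO minus no-Cre (-1.20 over 11 libraries) and at -0.03 in Math1-Cre minus no-Cre over 11 libraries, while Neurod2 lies between -0.18 and +0.06 in all 6 fits.

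The partners that bHLH factors bind and the factors that inhibit them were described from a list of 11 genes. It holds the E proteins Tcf3, Tcf4 and Tcf12, and the Id genes, whose products sequester E proteins. It also holds the Notch effectors Hes1, Hes5 and Hey1, and their relative Hes6. None passed over 15 libraries in DKO against no-Cre, and the median difference was -0.09. Over 11 libraries 1 of 11 passed, Hey1, beside 1.08% of all genes against no-Cre and 0.541% against Math1-Cre. This repressor of bHLH genes was lower in DKO than in no-Cre (-0.74 ± 0.11, limma adjusted p = 0.00635) and than in Math1-Cre (-0.67 ± 0.12, limma adjusted p = 0.0308). Hey1 lay at 8.40 to 8.53 in the libraries of low Gsk3a row and at 8.72 to 9.37 in the others. Such a place, lower without overlap, was held by 0.843% of all genes.

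Of 12 relatives of the members 10 were measured. None passed over 15 libraries. Over 11 the single one to pass was Insm2, a paralog of Insm1, beside 1.08% of all genes against no-Cre and 0.541% against Math1-Cre. Insm2 was 4.04, 3.44, 4.20, 3.41 and 3.45 in DKO 1 to 5, 3.83, 3.62, 4.44, 4.45 and 4.16 in Math1-Cre 1 to 5, and 4.32, 4.70, 4.69, 4.31 and 4.67 in no-Cre 1 to 5. All 15 values lay below the background limit of 4.93, so no size or order is read from this row.

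Other genes of the lineage were counted too, with 1.08% of all genes passing against no-Cre over 11 libraries and 0.541% against Math1-Cre. Of 13 further progenitor genes measured, 0 passed over 15 libraries and 1 over 11, Mycn, a driver of progenitor division, which was lower in DKO than in no-Cre (-0.64 ± 0.12, limma adjusted p = 0.0296) and than in Math1-Cre (-0.70 ± 0.14, limma adjusted p = 0.0489). Of 14 genes of maturing granule neurons, 0 passed over 15 libraries, and over 11 libraries 2 were lower and 1 higher than in no-Cre. Cadps2, which primes vesicle release, was lower (-1.26 ± 0.15, limma adjusted p = 0.0014). The other gene called lower was the glutamate receptor subunit gene Grin2c (limma adjusted p = 0.0123), at 3.92, 3.78 and 3.49 in DKO 2, 4 and 5, all under the background limit, so no size is given. Gabra6, which encodes a GABA receptor subunit, was called higher (limma adjusted p = 0.00239). Its level was 5.42 in DKO 2, 6.02 in DKO 4 and 4.76 in DKO 5, with 5.83 in Math1-Cre 1 and 5.78 in Math1-Cre 2, against 3.50 to 3.95 in the 10 libraries of high Gsk3a row. By the row 0.663% of all genes lay higher without overlap. The high-row libraries, and DKO 5 among the low-row ones, were below the background limit of 4.93, so the size of the difference is not given.

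Over the 15 libraries the genes closest to Atoh1 in pattern were Kif22, Cenpf and Hmmr, measured by the root mean square difference of centred log2 values. Kif22, a kinesin, was at 0.15, Cenpf, a kinetochore protein gene, at 0.16 and Hmmr, a hyaluronan receptor gene, at 0.17, against 0.43 for the spread of Atoh1 itself. Kif22 was 6.53, 5.73, 6.46, 6.24 and 6.10 in DKO 1 to 5, 6.19, 6.12, 6.64, 6.96 and 6.92 in Math1-Cre 1 to 5, and 7.12, 7.20, 6.79, 7.05 and 6.88 in no-Cre 1 to 5. Among the members Neurod1 on its own row (0.26) and Nhlh1 (0.27) were nearest to Atoh1, and Meis1 was farthest (0.46). The genes nearest to the row of Neurod1 alone were Ckap2 (0.12), Cyp39a1 (0.14) and Bche (0.14). For Nhlh1, looked up after its values were seen, the nearest was Chrna3, a nicotinic receptor subunit gene (0.14 against a spread of 0.57). Mki67, a marker of dividing cells, lay at 8.57 to 9.01 in the 5 libraries of low Gsk3a row and at 9.17 to 9.80 in the 10 others. As stated, 0.843% of all genes lay lower without overlap.

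Markers of other cell types were compared beside these results. Of 6 astrocyte markers 0 passed in any comparison, and their mean level ran from 8.15 to 8.40 in DKO, 8.07 to 8.59 in Math1-Cre and 7.92 to 8.48 in no-Cre libraries. Of 6 measured Purkinje markers 0 passed, with library means of 10.26 to 10.36, 10.26 to 10.42 and 10.25 to 10.44 in the same order. Of 6 endothelial markers 0 passed, with library means of 7.23 to 7.62 in DKO, 7.41 to 7.98 in Math1-Cre and 7.31 to 7.90 in no-Cre, and of 6 microglial markers 0 passed, with 5.05 to 5.44, 5.32 to 5.95 and 5.27 to 5.81. In DKO minus no-Cre over 15 libraries 6 of 6 endothelial markers (median -0.29) and 5 of 6 microglial markers (median -0.25) lay below 0, beside 7 of 9 members. So did 6 of 6 oligodendrocyte markers (median -0.13), with Mbp at -0.41 and Pdgfra at -0.37 (limma adjusted p = 0.117 and 0.129), 4 of 5 unipolar brush cell and nuclear neuron markers (median -0.13), 8 of 11 hindbrain markers (median -0.17), 4 of 6 interneuron, 4 of 6 Purkinje and 3 of 6 astrocyte markers. The median over all genes in that comparison was below 0 as well, at -0.02. Of the 11 hindbrain markers 7 averaged below the background limit of 4.93. The others varied widely between libraries, with Dbh at 3.71 to 8.09, Tph2 at 3.13 to 7.37, Slc6a4 at 3.42 to 8.56 and Hoxa2 at 3.91 to 7.39. In the same comparison Dbh was at +1.05, Tph2 at -0.88, Slc6a4 at -0.64 and Hoxa2 at -0.41. Interneuron, oligodendrocyte, unipolar brush cell and hindbrain markers had 0 called in each comparison too. Their part in the differences of the members was not tested. With array spread as a covariate the 11-library difference of Nhlh1 from no-Cre was -1.22 (limma adjusted p = 0.0032) and that of Atoh1 -0.93 (limma adjusted p = 0.0588).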

How the data were processed

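RNA of 15 libraries, labelled whole cerebella but enriched for progenitors per the design text, was measured on Affymetrix whole-transcript arrays. The deposited values are log2 expression, 1 per array row, made by the authors with RMA and Partek 6.6 on build mm9, per the submitters' processing notes; the sources used here do not give their order or settings. Values ran from 2.11 to 13.49 and were used as deposited. Of 41345 rows, 23521 had 1 symbol in the platform annotation, 23328 of them matched to the GRCm38.p6 gene table. The row with the highest mean stood for each of 22180 genes. Groups and replicate numbers came from titles. Limma 3.58.1 in R 4.3.3 fitted a mean per group, with eBayes and Benjamini-Hochberg over all genes at 0.05, after a test on simulated data. The members, gene lists and settings were chosen with earlier results of these data known. The genes named were the 9 members, called list genes (up to 4 a list), Gsk3a, Gsk3b, Mki67, Axin2 and the 3 genes nearest to Atoh1 and to Neurod1; Insm2 values, the nearest gene to Nhlh1 and the values of DKO 1 and 3 were added after they were seen. Python 3.11.15 and matplotlib 3.10.9 drew the figures. The number of arrays limits the precision. RNA integrity was at least 7.5, per the labels.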

Additional observations from a re-analysis of the deposited data

Results flagged for a closer look

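Atoh1 in the library labelled DKO 2 was 7.81, far below the other 4 DKO libraries, which lay at 8.54 to 8.65. It was the single value to stand apart in this way among 30 groups of 5 libraries examined, and chance alone sets about 1 in 20 such groups apart. Without DKO 2 the 11-library difference of Atoh1 from no-Cre was -0.53 (limma adjusted p = 0.0709).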

How the results depend on the processing

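Over 15 libraries the 16 genes called in DKO minus no-Cre became 0 with quantile normalization, 6 with arrays centred on the median, 33 with a trended robust fit, 2 with only those groups in the fit, 739 with array weights, 7 with the cg1724 code of the descriptions as a covariate, 0 with array spread as a covariate and 239 over 11 libraries. The cg1724 covariate set replicate 5 of each group apart from the other replicates. The 122 called in DKO minus Math1-Cre became 20 with quantile normalization, 23 centred, 236 with the trended robust fit, 773 with array weights and 0 with array spread as a covariate. Centring moved the median of all genes to 0.09 in both comparisons, against -0.02 and -0.05 as deposited. Among the DKO minus Math1-Cre calls it changed the split to 20 higher and 3 lower, against 29 higher and 93 lower, and in DKO minus no-Cre to 3 and 3, against 4 and 12. Same-numbered libraries did not deviate together (correlations of -0.303 to 0.299), and with the replicate block 6 and 0 genes were called. Leaving out 1 library gave 0 to 1546 and 0 to 1288 genes, the highest in both without no-Cre 4.

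The members called in DKO minus no-Cre were 1 with array weights (Neurod1 on its own row), 2 over 11 libraries, and 0 to 2 leaving out 1 library. In DKO minus Math1-Cre 1 was called over 11 libraries. Over 11 libraries the 2 called against no-Cre became 1 with quantile normalization, centring, only those groups, the replicate block, the cg1724 code, the row with the lowest mean or array spread as a covariate, and 4 with array weights; leaving out 1 library gave 1 to 4. The cause of these changes was not tested.

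Signs turned only for differences that did not pass. DKO minus no-Cre turned for Pax6 (0.0304 with quantile normalization, 0.0841 centred, -0.103 to 0.045 leaving out 1 library), Meis1 (-0.0465 with array weights, -0.154 over 11 libraries, -0.0684 to 0.1199 leaving out 1 library) and Neurod2 (-0.0468 and -0.1227 under the same settings, -0.0754 to 0.1243 leaving out 1 library). DKO minus Math1-Cre turned for Barhl1 (0.0689 with quantile normalization, 0.1105 centred, -0.1687 to 0.0897 leaving out 1 library), Insm1 (0.0676 with quantile normalization, 0.0518 centred), Meis1 (-0.1332 over 11 libraries) and Neurod2 (-0.1788 over 11 libraries, -0.0671 to 0.046 leaving out 1 library). Math1-Cre minus no-Cre over 11 libraries turned for Nhlh2 (0.035), Insm1 (0.0296) and Neurod2 (0.0561), which over 15 libraries ran from -0.0817 to 0.1179 leaving out 1 library. With array spread as a covariate over 11 libraries Neurod2 was 0.0242 against no-Cre and 0.021 against Math1-Cre, and Meis1 0.0692 against Math1-Cre, or 0.0095 centred.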
